A study of Mus musculus with 2 samples.

Results

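The columnar epithelial cells of the gastroesophageal squamocolumnar junction (GE-SCJ) of the newborn mouse were the 291 cells that the authors' clustering labelled columnar epithelial and whose tag was that of the pup junction. They were 291 of 615 cells of the pup junction, of 1540 columnar cells and of 7808 cells in all. Esophagus, GE-SCJ and stomach were taken from wild type C57BL/6 mice on embryonic days E15 and E19, from pups on day 2 and from adults of 8 weeks. The cells of each region and stage were marked with an oligonucleotide tag of their own, pooled and sequenced as 1 library with 10x Genomics 3′ chemistry, which counts unique molecular identifiers (UMIs) from the 3′ ends of transcripts. The 291 cells were compared with 351 columnar cells of the pup stomach and with 274 columnar cells of the GE-SCJ at E19. The labels name no treatment or transgene for any of the 3 groups. They give 2 mice for the pup and 2 for E19, pooled within a tag, whereas the methods speak of 3 mice. Each group is therefore a single pooled sample, no difference could be tested, and the intervals given here cover counting error only.

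The tags that separated the 3 groups are shown because they alone place a cell in the junction or the stomach of the pup or at E19.
GE-SCJ, pup: cggattccacatcat
stomach, pup: gttgatctataacag
GE-SCJ, E19: cgcgatatggtcgga
Each tag has 15 bases. The tag of the pup junction differed from that of the pup stomach at 9 positions and from that of the E19 junction at 12, and no pair among the 11 tags in use differed at fewer than 8.

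The glandular stomach of the mouse is lined by a simple columnar epithelium that is folded into pits and glands. Pit cells make surface mucus, neck cells make gland mucus, chief cells release pepsinogen and other digestive enzymes, and parietal cells pump acid through the H+/K+-ATPase. Around birth the glands are still being built, and the newborn stomach makes chymosin, the milk-clotting protease encoded by Cym. At the junction this epithelium meets the stratified squamous epithelium that lines the esophagus and the forestomach.

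The 291 cells held 8193734 UMIs, between 1552 and 78083 per cell with a median of 22286. The pup stomach group held 11420234 UMIs with a median of 29810 per cell, and the E19 junction group 7164025 UMIs with a median of 24442.5. Median mitochondrial shares were 4.30% in the pup junction, 4.08% in the pup stomach and 2.62% at E19. Levels are in CPM, for which a gene's UMIs were added up within each group and set to a total of 1000000, with exact 95% Poisson intervals in parentheses. Log2 ratios compare summed CPM after 1 UMI was added to each sum and carry exact conditional 95% intervals. Comparisons use genes with at least 100 UMIs over both groups, and a gene is called past the fold where its absolute log2 ratio was at least 1, that is, 2-fold.

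The columnar label was set by the authors from marker genes, so the levels of such markers describe these cells and do not test the label. In the pup junction Krt8, a keratin of simple epithelia, was at 1199 CPM (1175 to 1223), and Agr2, which folds mucins, at 3162 CPM (3123 to 3200). Pgc, the precursor of the protease gastricsin, reached 29779 CPM (29661 to 29898), and Muc6, the gland mucin, 664 CPM (647 to 682). The 8 columnar markers summed to 37730 CPM, against 2751 CPM in the pup immune cells, 2279 CPM in the stromal cells and 3168 CPM in the squamous cells of the pup junction, where all 8 were also above 1 CPM. In single columnar cells they made up a median of 2.15% of UMIs, with a lowest value of 0.0499% in a cell of cluster 2 of the authors' clustering, below the median of 0.181% of the immune cells. Of the markers of other classes, the 4 immune markers summed to 2.20 CPM, the 3 endothelial to 4.27 CPM and the 4 neural to 2.93 CPM. The 6 squamous markers summed to 90.3 CPM, with Krt13 as the most abundant at 55.04 CPM, against 6967 CPM in the squamous cells of the same tag. Krt13 was also at 85.6 CPM in the immune cells of the pup, a class that should lack it. The 6 fibroblast markers summed to 238 CPM, and the immune cells had 558 CPM of them. The pup immune cells also held 2067 CPM of Cym and 1753 CPM of Pgc, and the source of these UMIs was not tested.

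Genes of digestive enzymes were among the most abundant in the summed cells. The 10 most abundant genes, apart from mitochondrial and ribosomal protein genes, were Cym with 47786 CPM, Pgc, Pga5 with 24965 CPM, Clps with 17995 CPM, Tff1 with 12176 CPM, Malat1, Gm42418, Mt1, Pla2g1b with 7977 CPM and Tpt1. Pga5 encodes a pepsinogen, Clps the cofactor of pancreatic lipase, Pla2g1b a secreted phospholipase and Tff1 the trefoil peptide of pit cells. Malat1 is a nuclear long noncoding RNA, Gm42418 a predicted gene that overlaps ribosomal RNA sequence, Mt1 a metallothionein and Tpt1 a translation-associated protein. In the pup stomach the enzymes had similar levels, with 41375 CPM of Cym, 33193 CPM of Pgc and 19548 CPM of Pga5. None of the 10 most abundant genes was past the fold between the regions, where 1.62% of all genes tested were.

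The cells were not uniform. The authors' own clustering split them into 225 cells of its cluster 5, 40 of cluster 12 and 26 of cluster 2. In cluster 5 a median of 11.7% of a cell's UMIs came from the chief cell list (0.452% to 56.8%), which holds Cym, Pgc and Pga5. The median of that list was 1.40% in cluster 2 and 1.78% in cluster 12, against 0.419% in the pup immune cells. In cluster 12 the parietal list made up a median of 2.25% of UMIs (0.367% to 6.09%), against 0.0883% in cluster 5. In cluster 2 the pit and surface mucous list made up a median of 12.6% (0.0138% to 35.4%), against 0.258% in cluster 5. Some cells of cluster 5 were nevertheless above the median of cluster 2. Of the 183224 UMIs of that list in the pup junction, cluster 5 held 96762 and cluster 2 held 77395. The pit signal was thus not confined to cluster 2. The plot of both shares shows where pit and parietal signal lay. The 35 cells with at least 1% of UMIs from parietal genes had a median of 0.556% and at most 1.51% of pit genes, and 14 cells lay between 0.5% and 2% of parietal UMIs. These cutoffs divide a range and do not define types.

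**Figure D1:**
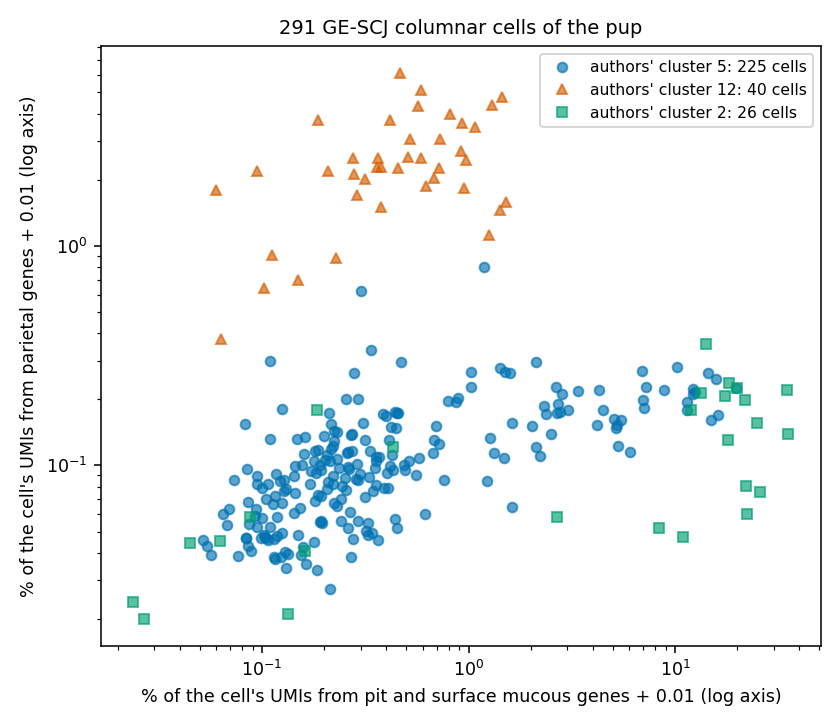
Each point is 1 of the 291 GE-SCJ columnar cells of the pup, placed by the percent of its UMIs from pit and surface mucous genes (x axis) and from parietal genes (y axis), both with 0.01 added and on log axes, and marked by the authors' cluster. Most of the 40 cells of cluster 12 stand above the other clusters in parietal share, and most of the 26 cells of cluster 2 stand to the right in pit share. Some cells of cluster 5 also stand to the right.

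Single genes differed widely in how many cells carried them. The 10% of cells with the most UMIs, 29 cells, held 38.4% of the UMIs of Cym and 48.3% of those of Pgc. They held 94.7% of the UMIs of Gkn1 and 95.5% of Gkn2, the gastrokines of the pit surface. Atp4a and Atp4b, the subunits of the acid pump, had 84.9% and 87.7% there. The UMIs of Cym and Pgc were thus less concentrated in few cells than those of the gastrokines and the acid pump. Every one of the 86 immune cells of the pup also had a UMI of Cym and of Pgc, so that a UMI of either does not mark an enzyme cell. Mki67, a marker of cycling cells, had a UMI in 69 of 291 cells, and after each cell was thinned to 5000 UMIs in 10.2% of 284 cells, against 24.4% of 266 cells at E19. Stromal cells of the pup junction had it in 1 of 32 thinned cells (3.13%, exact 95% interval 0.0791% to 16.2%), and the pup immune cells, which can cycle themselves, in 25.9% of 58.

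In 3 cells at least 5% of UMIs were endocrine. Gast, which encodes gastrin, had 6208 UMIs, of which 3667 and 2508 lay in 2 cells. Chga, a granin of endocrine granules, had 197 of 235 UMIs in 1 cell. Ghrl, the ghrelin gene, had 369 of 765 UMIs in 1 cell, and Sst, the somatostatin gene, 229 of 321. Of 13 endocrine genes, 5 had at least 100 UMIs over both pup groups. In the comparison with the stomach, 4 of the 5 were past the fold upward, where 1.00% of all genes tested were, and without the 5 cells of each group with the most UMIs the log2 ratio of Gast changed from 8.32 to 1.29. The Gast level of the pup junction is thus that of a pair of cells. The 8 genes of the tuft cell list summed to 5.86 CPM, led by Avil at 3.54 CPM, and Dclk1 was at 0.488 CPM.

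The first comparison asks what set the junction apart from the stomach in the pup. Of 9577 genes, 96 (1.00%) were higher in the GE-SCJ cells past the fold and 59 (0.616%) were lower, with a median log2 ratio of 0.02. Without the 5 cells per group with the most UMIs of each gene, 39 of the 96 and 55 of the 59 were still past the fold, so that 57 of the higher and 4 of the lower genes rested on a few cells. Over all genes that setting had 45 higher and 115 lower past the fold, so that the balance between the directions turned. The setting is not even-handed, because 5 cells are a larger share of the smaller junction group. In cluster 12 they are taken from 40 junction and 107 stomach cells. The part of this in the counts was not tested. The stage comparison called 15.1% of genes past the fold in either direction and this one 1.62%. The groups also differed in composition: clusters 5, 12 and 2 held 77.3%, 13.7% and 8.93% of the junction cells and 62.7%, 30.5% and 6.84% of the stomach cells.

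Irx5, an Iroquois homeobox transcription factor (chromosome 8, 92357625 to 92376286, plus strand in GRCm38), had the largest ratio that did not rest on few cells. It was at 15.1 CPM (12.6 to 18.04) in the pup junction, at 1.23 CPM (0.670 to 2.06) in the pup stomach and at 20.7 CPM (17.5 to 24.3) in the junction at E19. The junction groups stood high at both stages and the stomach low. The log2 ratio between the pup regions was 3.54 (2.76 to 4.42), and 4.61 without the 5 top cells. Irx5 had a UMI in 78 of 291 cells, with at most 5 in a cell, against 10 of 351 cells in the stomach. After thinning to 5000 UMIs these shares were 7.75% and 0.880%. The ratio was 4.14 within cluster 5, 2.68 within cluster 12 and 2.64 within cluster 2, a breakdown chosen after seeing the data. None of the 86 immune cells of the pup had a UMI of it, which allows up to 4.94 CPM, and in the 44 squamous cells of the same tag it was at 44.2 CPM.

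Irx5 and 4 other genes were past the fold in the same direction at E15, E19 and in the pup, the only genes of the 9577 to be so among those with at least 20 UMIs at each stage. The other 4 were lower at the junction, and this set was picked out after its values were seen. Gkn3, a gastrokine (chromosome 6, 87383256 to 87388935, minus strand), was at 207 CPM (198 to 217) in the pup junction and 911 CPM (893 to 928) in the pup stomach, and its log2 ratio of -2.13 (-2.21 to -2.06) in the pup was -1.60 at E19 and -2.94 at E15. Nkx6-3, a homeobox factor of the distal stomach (chromosome 8, 23153269 to 23158948, plus strand), was at 6.96 CPM (5.27 to 9.01) against 15.8 CPM (13.6 to 18.3) in the pup, with ratios of -1.17, -3.79 and -2.90 in the pup, at E19 and at E15. Its relative Nkx6-2 had 6.71 against 15.5 CPM in the pup and ratios of -1.19, -2.34 and -1.81. Gstm3, a glutathione transferase, had 11.96 against 31.1 CPM and ratios of -1.37, -1.25 and -1.43. In the junction cells of the pup, Nkx6-3 had all of its 57 UMIs in cluster 5, whereas in the stomach cluster 2 was also at 72.01 CPM.

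**Figure D2:**
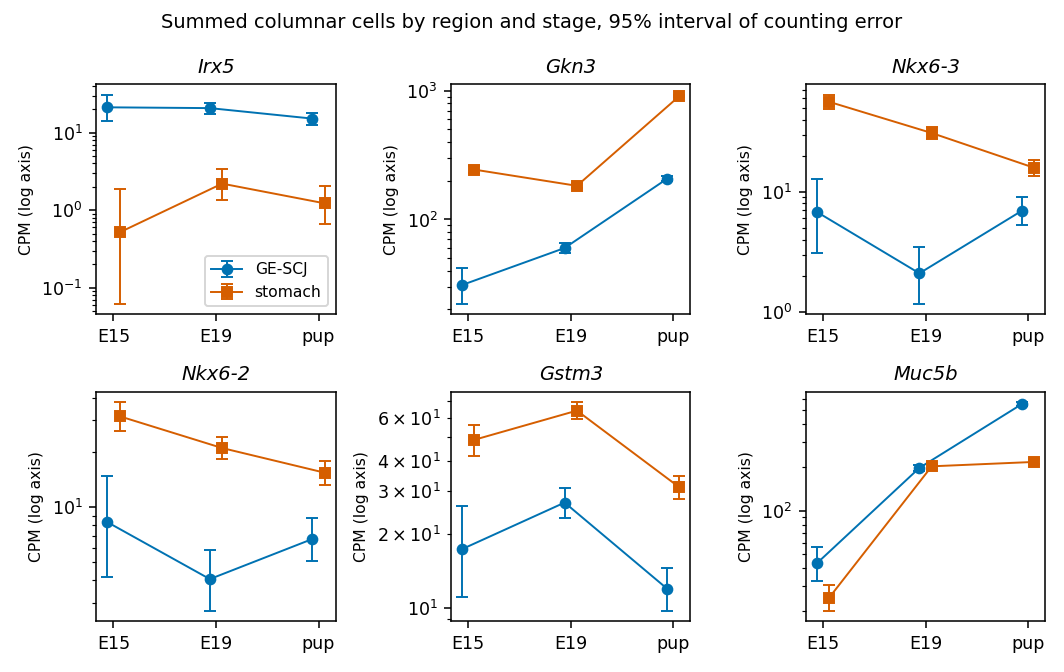
CPM on a log axis of the 5 genes past 2-fold between the regions at 3 stages, and of Muc5b, in summed columnar cells of the GE-SCJ (circles) and the stomach (squares) at E15, E19 and pup, with exact 95% Poisson intervals. Irx5 is higher at the GE-SCJ at each stage, Gkn3, Nkx6-3, Nkx6-2 and Gstm3 are lower, and the 2 regions separate for Muc5b in the pup.

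The regional calls of the pup were compared with the ratios of the younger cells. Of the 96 genes higher at the pup junction, 76 had at least 20 UMIs at E19, and of these 29 (38.2%, exact 95% interval 27.2% to 50.02%) were also higher at the junction there, 5 of them past the fold and 21 past it in the other direction, where 0.501% of all genes tested at E19 were higher past the fold and 1.10% lower. Of the 59 lower genes, 45 had that depth and 20 (44.4%, 29.6% to 60.0%) were lower at E19 too, 10 past the fold and 5 past it in the other direction. At E15 the shares were 20 of 51 and 13 of 31 genes with that depth, and of all genes tested there 0.797% were higher and 0.828% lower past the fold, 1.63% in all against 1.60% at E19. Over all genes tested in the pup that had this depth, 51.8% were above 0 at E19 and 58.5% at E15. The pup and E19 groups share no cells, and genes are not independent replicates. Of the 96 higher genes, 57 were past the fold in the pup only with the 5 top cells per group included. How many of these are among the 21 opposite genes was not counted. The regions differed in Xist before birth, with 1412 CPM in the junction and 681 CPM in the stomach at E19 and 897 and 241 CPM at E15. In the pup it was at 1438 and 1114 CPM. The 4 Y-linked genes summed to 36.0 and 85.05 CPM at E19 but were nearly level at E15, at 118 and 127 CPM. The part of sex mix in the counts was not tested.

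**Figure D3:**
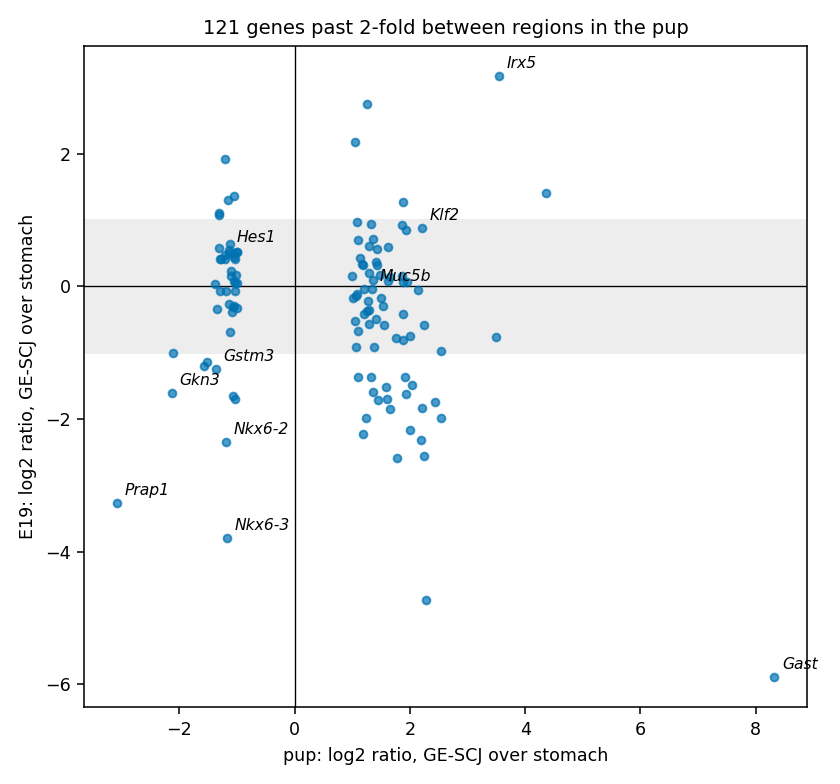
Log2 ratio of the GE-SCJ over the stomach at E19 (y axis) against that in the pup (x axis) for the 121 genes past 2-fold in the pup with at least 20 UMIs over both E19 groups, with the band of less than 2-fold at E19 in grey. Irx5 lies in the upper right, Nkx6-3, Prap1 and Gkn3 in the lower left, and most points lie inside the band or on the opposite side.

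Among the secreted products, Muc5b and Tff3 were higher at the junction. Muc5b, a gel-forming mucin, was at 549.8 CPM (534 to 566) in the pup junction, 218 CPM (209 to 227) in the pup stomach and 198 CPM (188 to 209) in the junction at E19. The pup junction was high, and the other 2 groups lay near each other. Its log2 ratio between the pup regions was 1.33 (1.26 to 1.41), and 1.63 without the 5 top cells. It was 1.33 within cluster 5 and 1.17 within cluster 2, where the level was 4529 against 2015 CPM. Muc6 was at 664 against 841 CPM. Tff3, the trefoil peptide of intestinal goblet cells, was at 154 CPM in the junction and 62.6 CPM in the stomach, a log2 ratio of 1.29 (1.16 to 1.43). Of 13 mucin and mucin glycosylation genes tested, Muc5b alone was past the fold, where 1.00% of all genes were higher, and the median was 0.29 against 0.02 for all genes.

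Spink1, a trypsin inhibitor, differed by far more but in few cells. It was at 274 CPM (263 to 286) in the pup junction, 24.3 CPM (21.6 to 27.4) in the pup stomach and 2.09 CPM (1.17 to 3.45) at E19. In the pup junction 6 cells held 90% of its 2245 UMIs, and 2224 of these UMIs lay in the 26 cells of cluster 2. Within cluster 2 the junction was at 3864 CPM and the stomach at 401 CPM. Reg3g, a lectin that kills bacteria, had 178 of its 310 UMIs in a single cell. Hpx, which binds heme, had 166 UMIs in 9 cells, and Chia1, an acidic chitinase, had 274 of 393 in 1 cell.

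Klf2 and the inducible heat shock genes were higher at the junction. Klf2, a Krüppel-like transcription factor, was at 149 CPM (141 to 158) in the pup junction, 32.2 CPM (29.01 to 35.7) in the pup stomach and 57.2 CPM (51.8 to 63.05) in the junction at E19, and its log2 ratio between the pup regions was 2.21 (2.04 to 2.38). Hspa1a, an inducible chaperone of the HSP70 family, was at 175 CPM (166 to 185), 43.8 CPM (40.03 to 47.8) and 40.3 CPM (35.8 to 45.3) in the same order. Hspa1b, its near-identical copy, was at 209.7, 62.00 and 51.4 CPM, and reads of the pair may have been split between them. The pup junction was the high group for each of the 3 genes. The regions differed in other classes of the pup as well: the log2 ratio of Hspa1a was 1.29 (0.86 to 1.73) in immune cells, 0.91 (0.70 to 1.11) in smooth muscle cells and 0.59 (0.29 to 0.91) in stromal cells. Klf2 had 1.56, 1.75 and -0.86 there. Of the 13 immediate early and heat shock genes, Hspa1a and Hspa1b alone were past the fold, where 1.00% of all genes were higher and 0.616% lower, and the list's median was -0.18 against 0.02 for all genes. Fos, an immediate early gene, was at 1064 CPM against 1441 CPM. What the ratios of Hspa1a, Hspa1b and Klf2 in the columnar cells owe to whatever moved these other classes was not tested.

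The promoters of both genes hold the same heat shock motif, shown because the 2 copies moved together. A stretch of 100 bases from the Hspa1a promoter, chr17:34972207-34972306 on the minus strand in GRCm38.p6 (RefSeq), reads 5′ to 3′ with the match to GAANNTTC in capitals:
Hspa1a: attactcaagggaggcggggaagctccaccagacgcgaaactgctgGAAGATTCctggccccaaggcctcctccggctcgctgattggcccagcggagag
The stretch at the same place before Hspa1b, chr17:34959289-34959388, is identical at all 100 bases. GAANNTTC, a motif of the heat shock element type, reads the same on both strands, and 2582 of 32851 RefSeq promoter windows of 300 bases (7.86%) hold it.

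The remaining genes with the largest ratios were less abundant. Nrn1, a cell surface protein known from neurons, was at 31.00 CPM in the pup junction and 8.41 CPM in the stomach, with a log2 ratio of 1.87 (1.53 to 2.23) and of 1.66, 2.44 and 1.54 within clusters 5, 12 and 2. Hist1h2ac, a histone, was at 20.02 against 5.43 CPM. Kctd12, a receptor-associated protein, was at 17.8 against 4.55 CPM, but at 579 CPM in immune cells, and Hkdc1, a hexokinase, at 10.4 against 3.24 CPM. Nrn1 was higher at the junction in each cluster.

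Of 12 parietal genes tested, 4 were lower at the junction past the fold, namely Atp4b, Kcne2, Kcnj16 and Hrh2, where 0.616% of all genes were, and 8 were within it. The median log2 ratio was -0.78, against 0.02 for all genes. Atp4a was at 1925 CPM (1895 to 1955) in the pup junction and 3340 CPM (3306 to 3374) in the pup stomach, and Atp4b at 1513 CPM (1487 to 1540) against 3034 CPM (3002 to 3066). The share of parietal cells moved with them: 12.03% of the junction cells (exact 95% interval 8.52% to 16.3%) and 28.5% of the stomach cells (23.8% to 33.5%) had at least 1% of UMIs from parietal genes. In the cells of cluster 12 alone, Atp4a was at 9712 CPM in the junction and 9779 CPM in the stomach, a log2 ratio of -0.01, and that of Atp4b was -0.21. Without the cells rich in parietal or endocrine genes the ratio turned to 0.48 for Atp4b and 0.063 for Kcnj16, and within cluster 5 to 0.67 and 0.41. Both genes belong to the parietal list that picked the cells left out, so the turn without those cells is not an independent result. Within cluster 12 both pump subunits were within 2-fold between the regions. The part of the share of parietal cells in the summed ratios was not tested.

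Some of the genes with the lowest ratios turned direction where few UMIs were left. Cdkn2a, the locus of cell cycle inhibitors, was at 1.10 CPM in the pup junction and 9.28 CPM in the stomach, and its log2 ratio of -2.94 was 1.20 without the cells rich in parietal or endocrine genes, with 253 junction and 250 stomach cells left. Cyp2c29, a cytochrome P450, had -2.26 and 1.79, Lct, lactase, -1.95 and 0.69, and Hecw2, a ubiquitin ligase, -1.37 and 0.35. Of the UMIs outside cluster 12, cluster 5 held 3 junction and 1 stomach UMIs of Cdkn2a, 1 and 0 of Cyp2c29, 6 and 4 of Lct and 7 and 4 of Hecw2. Within cluster 12, which held 105 of the 106 stomach UMIs of Cdkn2a, the log2 ratios were -2.60, -1.47, -1.28 and -0.66 in the same order of genes. The setting leaves out parietal-rich and endocrine-rich cells together, and the part of either in these ratios was not tested. Cox7a1, a subunit of cytochrome oxidase, was at 66.4 against 173 CPM, and 92.3% of its junction UMIs lay in 29 cells. Ak1, an adenylate kinase, was at 11.6 against 34.9 CPM, Akr1b8, an aldo-keto reductase, at 29.4 against 84.5 CPM, and Cdhr5, a cadherin of the brush border, at 3.05 against 9.02 CPM. The uncharacterised transcripts 2210408F21Rik and 4930520O04Rik were at 2.44 against 8.58 and 3.78 against 10.4 CPM. Prap1, a secreted protein of the intestine and uterus, had 2.20 against 19.5 CPM and was also lower at E19, with 4.61 against 45.5 CPM. In splits chosen after seeing the data, the pup log2 ratio of Prap1 turned to 1.32 within cluster 12 and that of Akr1b8 to 0.32 within cluster 5.

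Signals and their targets were largely level between the regions, as genes were in general, with 1.62% of all genes tested past the fold. The exceptions were Hes1 and Nrarp, both induced by Notch, which were lower past the fold among 5 Notch genes tested. Of all genes 0.616% were lower past it and 1.00% higher. Hes1, a transcription factor, was at 244 CPM (234 to 255) in the pup junction, 540.1 CPM (527 to 554) in the pup stomach and 1025 CPM (1002 to 1049) at E19. The pup junction was the lowest of the 3 groups and the E19 junction the highest. The log2 ratio of the pup regions was -1.14 (-1.22 to -1.07), -1.47 within cluster 5 and -0.25 within cluster 12. Nrarp had 3.42 against 7.97 CPM, but its log2 ratio turned to 0.32 within cluster 12, a setting chosen after seeing the data. The receptor Notch1 had 19.2 against 18.3 CPM. No gene tested of the hedgehog (4), WNT (12), BMP and TGF-beta (10), EGF (8), PDGF (4) or FGF (7) lists was past the fold. Between the pup regions 1.62% of all genes were past it, so that these counts are near that share.

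Values of these lists in the pup junction and stomach show where their genes lay. Among ligands, Ihh was at 46.3 and 35.4 CPM, Wnt4 at 145 and 89.8 CPM, Bmp2 at 65.05 and 37.04 CPM, Hbegf at 121 and 142 CPM and Pdgfa at 115 and 106 CPM. Among receptors, the hedgehog receptor Ptch1 was at 31.5 and 22.9 CPM, the WNT receptor Fzd5 at 54.9 and 56.04 CPM, Bmpr1a at 74.9 and 70.9 CPM, Erbb3 at 86.3 and 73.1 CPM and Fgfr2 at 23.2 and 22.2 CPM. Wnt4 and Bmp2 leaned to the junction with log2 ratios of 0.69 and 0.81, both short of 2-fold. Wnt4 had a UMI in 161 of 291 cells of the junction and in 4 of 86 immune cells.

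Of 17 genes tested of a list of gastric transcription factors, which does not hold Irx5, Nkx6-2 and Nkx6-3, none was past the fold between the regions. That is near the share of all genes, of which 1.62% were past it. Klf4, a factor of mature epithelium, was at 398 against 218 CPM and Sox2, a foregut factor, at 22.8 against 11.7 CPM, with log2 ratios of 0.87 and 0.96 (0.63 to 1.29). The interval of Sox2 reached past the fold, and its ratio was 1.41 within cluster 12 and 1.13 without cluster 2, settings chosen after seeing the data. After thinning to 5000 UMIs per cell Sox2 was at 22.5 and 7.62 CPM in 1 random draw, and the ratio was 0.92 with another draw of the stomach cells. Onecut2 and Pdx1, factors of the distal stomach and duodenum, were too low to be tested in the pup, with 5 UMIs of Onecut2 in the junction and 77 in the stomach. All 18 proliferation genes were within 2-fold, again near the share of all genes, of which 1.62% were past it. Their median was 0.04, and their summed level was 1086 CPM in both regions.

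The other lists held few regional calls, where 1.00% of all genes tested were higher past the fold and 0.616% lower. Of 10 claudin and junction genes, Cldn3 and Cldn4 were lower past the fold, with 7.57 against 16.6 and 5.25 against 13.3 CPM. Of 22 lipid genes, Apob and Mttp, which loads lipid onto it, were higher, with 30.8 against 13.7 and 7.32 against 3.50 CPM. Of 19 xenobiotic and redox genes, Aldh3a1 was higher and Akr1b8 lower. None of the 9 pit genes and 11 fetal genes tested was past the fold, and of 8 defense genes Reg3g alone was. All 4 hemoglobin genes tested were higher past the fold, but 2296 of 4975 UMIs of Hbb-bs lay in 1 cell, and its log2 ratio of 2.21 was 0.23 without the 5 top cells. Of 6 squamous genes Krt5 and Krt14 were higher, with 12.6 against 5.43 and 10.3 against 2.28 CPM. The squamous markers given above summed to 90.3 CPM in the junction columnar cells, below 130 CPM in the pup immune cells and 201 CPM in the junction stromal cells. The log2 ratio of Krt14 turned to -1.26 within cluster 12, a split chosen after seeing the data. The part of free RNA in these levels was not tested.

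The second comparison asks what differed in the junction between E19 and day 2 after birth. Of 9381 genes, 534 (5.69%) were higher in the pup past the fold and 887 (9.46%) were lower. The median log2 ratio of all tested genes was -0.23, and relative to it 521 genes were lower past the fold. Different clusters held most of the cells at the 2 stages: cluster 2 held 93.1% of the E19 cells and 8.93% of the pup cells, and cluster 5 held 1.46% and 77.3%. The stages also differed in sex mix, with 2.81 CPM summed over 4 Y-linked genes in the pup against 36.0 CPM at E19, a difference that cannot be told apart from stage. Of 7 fibroblast genes tested, 5 were lower in the pup past the fold, and the 6 fibroblast markers summed to 238 CPM in the pup against 534 CPM at E19. The part of these in the stage ratios was not tested.

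Pepsinogen and lipid-digesting enzymes were far higher after birth, and chymosin was not. Pgc was at 1674 CPM (1644 to 1704) at E19 and 29779 CPM (29661 to 29898) in the pup, a log2 ratio of 4.15 (4.13 to 4.18). Pga5 went from 6180 to 24965 CPM, Clps from 1209 to 17995 CPM and Pla2g1b from 388 to 7977 CPM. Cym was at 47956 CPM (47795 to 48116) at E19 and 47786 CPM (47637 to 47936) in the pup, with a log2 ratio of -0.01, and at 21894 CPM at E15. The summed ratio of Pgc was 17.8-fold, but its E19 level was near that of pup cells of other classes in the same library, 1753 CPM in the immune cells and 1687 CPM in the stromal cells of the junction, and the part of free RNA in it was not tested. For Cym the immune cells held 2067 CPM. Of 8 chief cell genes tested, 6 were higher past the fold and none was lower, where 5.69% of all genes were higher and 9.46% lower.

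Many mucous genes were higher in the pup too. Gkn1 and Gkn2 had 3348 and 3403 CPM in the pup against 92.7 and 110.3 CPM at E19, and their log2 ratios of 5.17 and 4.95 were 4.71 and 4.46 without the 5 top cells. Of 9 pit and surface mucous genes, 5 were higher past the fold and none was lower, where 5.69% of all genes were higher and 9.46% lower. Of 7 neck mucous genes, 6 were higher against the same shares, among them, at E19 and then in the pup, Muc6 with 60.2 and 664 CPM and Tff2, the trefoil peptide of the neck, with 1174 and 3146 CPM. Wfdc2, a protease inhibitor, was the only one lower, at 597 and 127 CPM. For Muc6 the pup immune cells held 88.9 CPM, more than the E19 junction cells, and the part of free RNA in its E19 level was not tested. A4gnt, which caps gland mucin, was at 4.61 and 28.9 CPM. Of 10 parietal genes, 7 were higher past the fold, again beside 5.69% of all genes, with Atp4a at 336 and 1925 CPM, and the share of cells with at least 1% of parietal UMIs was 4.01% at E19 and 12.03% in the pup.

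**Figure D4:**
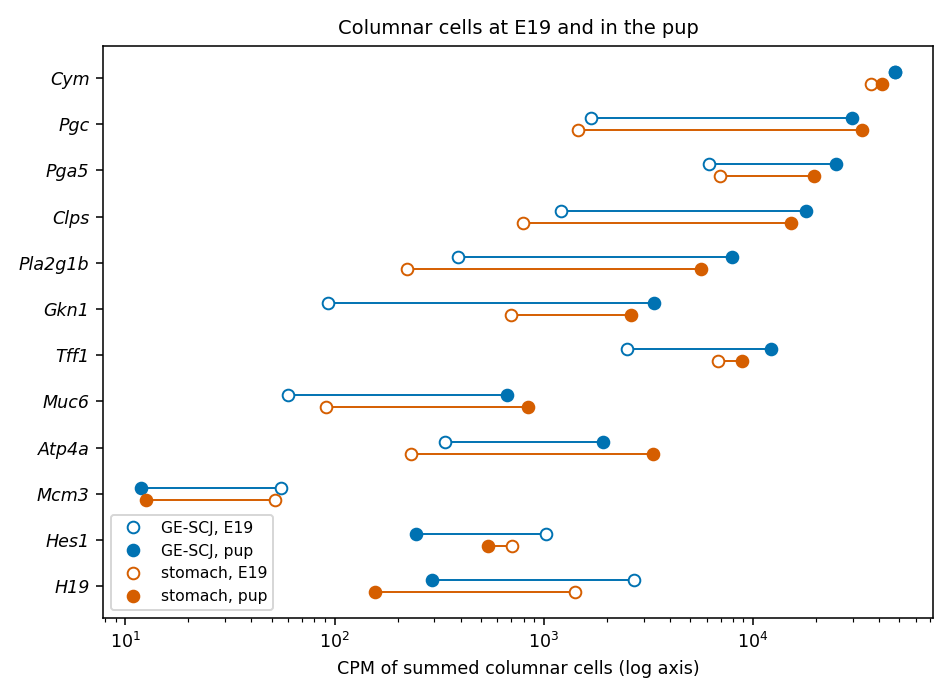
CPM on a log axis of 12 genes in summed columnar cells at E19 (open circles) and in the pup (filled circles), for the GE-SCJ and the stomach. The shift from E19 to pup has the same direction in both regions for each gene but Cym, which is level at the GE-SCJ, and for Hes1 it is far longer at the GE-SCJ.

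The genes with the largest ratios that held without the top cells had several functions. Spink1, Gkn1, Chia1 and Gkn2 belong to secretion, and Ly6m, a Ly6 family member, had 41 of 179 UMIs in 1 cell. The UMIs of Spink1 and Chia1 lay mostly in few pup cells, as given above, and Spink1 had a UMI in 34 of 291. Cxcl17, a mucosal chemokine, was at 70.7 CPM (65.02 to 76.7) in the pup against 2.93 CPM at E19, in 142 of 291 cells. From E19 to the pup, Gsdma2, a gasdermin, was at 13.96 and 332 CPM, and Aldh3a1, an aldehyde dehydrogenase, at 3.21 and 69.4 CPM. Gnmt, which uses up methyl groups, was at 0.977 and 27.2 CPM, Azgp1, a secreted glycoprotein, at 0.558 and 17.2 CPM, and the transcripts Gm15889 and E230001N04Rik at 0.977 and 26.97 and at 0.838 and 22.1 CPM. Cxcl17, Gm15889 and E230001N04Rik were spread over many cells, with no more than 51.1%, 51.1% and 51.4% of UMIs in 29 cells.

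Some metabolic genes were higher in the pup. Of 22 fatty acid and lipid handling genes, 9 were higher past the fold, 13 were within it and none was lower, where 5.69% of all genes tested were higher and 9.46% lower. Among them were, at E19 and then in the pup, Pdk4, which spares glucose, at 11.4 and 96.2 CPM and Apob, the carrier of secreted lipid, at 2.51 and 30.8 CPM. The list made up a median of 0.308% of a cell's UMIs in the pup and 0.297% at E19, and a highest value of 4.95% and 0.979%. Apoa1, an apolipoprotein, was at 678 CPM in the pup and 152 CPM at E19, with 88.8% of its pup UMIs in 29 cells and 4291 CPM in cluster 2. Fabp5, the most abundant member, was at 1765 CPM at E19 and 1609 CPM after birth. Of 19 xenobiotic and redox genes, 11 were higher, 8 were within the fold and none was lower, with a median of 1.06, and Cyp2b10, a cytochrome P450, went from 1.40 to 22.5 CPM. Of 8 defense and interferon genes, 3 were higher: Reg3g, Duox2, which makes hydrogen peroxide, and Il18, a cytokine, at 63.5 and 130.5 CPM.

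Fetal and proliferation genes were lower. Of 14 fetal genes tested, 11 were lower past the fold, where 9.46% of all genes were, with a median of -1.94 against -0.23 for all genes. Sox11, a transcription factor of embryonic precursors, was at 138 CPM (129 to 147) at E19 and 3.54 CPM (2.37 to 5.08) in the pup, and at 442 CPM at E15. H19, an imprinted noncoding RNA, was at 2699 CPM (2661 to 2738) and 292 CPM (280.5 to 304), and 6 of the 291 cells held at least 50% of its UMIs in the pup. Cldn6, an embryonic claudin, was at 26.1 and 1.59 CPM. Of 11 claudin and junction genes 5 were lower past the fold. All 18 proliferation genes were lower past it, with a median of -1.40, among them the replication helicase subunits Mcm3, at 55.1 and 11.8 CPM, and Mcm6, at 81.7 and 22.3 CPM.

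The other genes with the lowest ratios were low in the pup. Lypd2, a Ly6 family protein, had 2.81 CPM in the pup and 87.4 CPM at E19. The gasdermins Gsdmc2, Gsdmc3 and Gsdmc4, close paralogs whose reads may be split, had 8.18, 1.83 and 0.976 CPM in the pup against 194, 38.1 and 21.5 CPM at E19. In the order E19, then pup, Stmn2, a microtubule regulator known from neurons, was at 15.9 and 0.610 CPM, Wfdc1 at 41.9 and 2.07 CPM, Ifitm1, an interferon-induced membrane protein, at 244 and 19.4 CPM, Fads1, a fatty acid desaturase, at 42.3 and 3.30 CPM, Dmtn, which bundles actin, at 13.4 and 1.10 CPM, and A630076J17Rik at 31.97 and 2.44 CPM.

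Among signals, the epithelial hedgehog ligands were lower after birth. Shh was at 53.04 CPM (47.8 to 58.7) at E19 and 16.1 CPM (13.5 to 19.1) after birth, and Ihh at 137 CPM (129 to 146) and 46.3 CPM (41.7 to 51.2), while the receptor Ptch1 was at 30.2 and 31.5 CPM. Hes1 was 4.20-fold lower, with a log2 ratio of -2.07 (-2.14 to -1.997), and Nrarp had -2.12. Within cluster 12 alone, a setting chosen after seeing the data with 40 pup and 15 E19 cells, the stage ratio turned to 2.43 for Ihh and 0.11 for Nrarp. Wnt4 was past the fold upward, with 60.02 CPM (54.5 to 65.97) and 145 CPM (137 to 153). Id1, a target of BMP, was at 408 and 152 CPM and Areg, an EGF receptor ligand, at 60.3 and 16.96 CPM, both lower past the fold. Of 4 PDGF genes Pdgfd was higher past the fold, at 5.16 and 10.5 CPM, and of 7 FGF pathway genes none was past it, where 5.69% of all genes were higher and 9.46% lower. Among transcription factors Sox2 was at 85.7 and 22.8 CPM and Klf5 at 773 and 350.1 CPM.

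The stage ratios of the junction were set beside those of the stomach. Of the 534 genes higher at the junction, 498 of 534 with at least 20 UMIs (93.3%, exact 95% interval 90.8% to 95.2%) were also higher in the pup in the stomach, 361 of them past the fold and 10 past it in the other direction, where 5.48% of all genes tested in the stomach were higher past the fold and 9.85% lower. Of the 887 lower genes, 871 of 885 (98.4%, 97.4% to 99.1%) were lower there too. Over all genes tested at the junction, 31.9% were above 0 in the stomach. The regions were cut from extracted guts and pooled by region and stage, so that junction and stomach of a stage may share animals. Their sex mix moved in the same direction, with the Y-linked genes in the stomach summing to 85.05 CPM before birth and 2.28 CPM after it. Genes with unlike sizes in the 2 regions included Gkn1, with log2 ratios of 5.17 at the junction and 1.91 in the stomach, Tff1 with 2.28 and 0.37, and Hes1 with -2.07 and -0.38. Of 9 pit genes tested at E19, 4 were lower at the junction past the fold, namely Gkn1, Gkn2, Tff1 and Mucl3. Muc5ac was higher past it and 4 were within it, where 1.10% of all genes tested were lower and 0.501% higher. Gkn1 was at 693 CPM in the stomach against 92.7 CPM at the junction, and Tff1 at 6829 against 2506 CPM. In the pup the junction had 3348 against 2601 CPM of Gkn1 and 12176 against 8826 CPM of Tff1, and none of the 9 pit genes was past the fold.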

How the data were processed

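The cells came from 1 droplet library. The authors used Cell Ranger 6.1.1 with the mm10 genome, assigned cells to tags, removed barcodes with under 100 or over 8500 genes, over 80000 UMIs or over 20% mitochondrial UMIs, and clustered them in Seurat. The deposited matrix holds raw UMI counts for 19550 genes and 7808 cells. Cell labels, clusters and the mitochondrial percent were used as deposited by the authors. No doublet caller was run here.

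Counts were summed per group with Python 3.11.15, numpy 2.4.6, scipy 1.17.1 and pandas 2.3.3, and the interval code was tested on simulated data. Because a group is 1 pooled sample, no test was made. Intervals are exact 95% intervals and cover counting error only. Named genes are the 12 per direction with the largest smaller value of the log2 ratio with and without the 5 cells per group with the most UMIs of the gene, the 10 most abundant genes, and examples from gene lists, and any gene named outside this rule was chosen after its values were seen. An item that this rule names is not reported here. The members and lists were chosen with earlier results of these data known. Of 406 list members 397 were measured. Gene positions are from GENCODE on GRCm38. The alternatives changed the scaling, the UMI minimum, the cells kept and the depth per cell.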

Additional observations from a re-analysis of the deposited data

Results flagged for a closer look

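For 11 values the log2 ratio was past 2-fold in opposite directions in 2 groups, and none of these differences was tested. For the GE-SCJ over the stomach, the ratio in the pup and at E19 was -1.32 and 1.11 for Cldn4, 8.32 and -5.90 for Gast, 2.44 and -1.74 for Hba-a1, 2.21 and -1.83 for Hbb-bs, 2.24 and -2.56 for Hbb-bt, and 2.19 and -2.32 for Hpx. For the pup over E19, the ratio at the GE-SCJ and in the stomach was 8.60 and -5.62 for Gast, 1.15 and -3.03 for Hba-a1, 1.10 and -2.94 for Hbb-bs, 1.71 and -3.10 for Hbb-bt, and 1.05 and -1.15 for Krt14. In the GE-SCJ cells of the pup, 1 cell held 3667 of 6208 UMIs of Gast and 1 cell held 2296 of 4975 UMIs of Hbb-bs.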

How the results depend on the processing

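No paired analysis was possible because each group is 1 pooled sample. The counts of genes past 2-fold depended on the settings, and the causes were not tested. For the GE-SCJ over the stomach, 96 genes were higher, against 45 without the 5 top cells, 152 at a minimum of 50 UMIs, 36 at 400 UMIs and 31 after thinning to 5000 UMIs per cell. The 59 lower genes became 90 with the mean CPM of cells, 115 without the top cells, 98 at 50 UMIs, 22 at 400 UMIs, 24 without cells rich in parietal or endocrine genes and 28 after thinning. For the pup over E19, the 534 higher genes became 232 at 400 UMIs and 183 after thinning, and the 887 lower genes became 521 after centring, 375 at 400 UMIs and 333 after thinning. Splits by cluster were chosen after seeing the data: the region comparison had 46 higher and 16 lower genes within cluster 5, 43 and 18 within cluster 12 and 53 higher without cluster 2, and the stage comparison had 127 and 78 within cluster 12. With a 4-fold limit, 18.75% of higher and 100% of 3 lower regional genes had the same direction at E19, and 95.8% and 100% of the stage genes had it in the stomach.

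Of 1548 regional values of 141 named genes 21 reversed, 473 moved without reversing and 1054 stayed the same. Of 1284 stage values of 143 genes 23 reversed, 420 moved without reversing and 841 stayed the same. Without the rich cells the regional log2 ratio was 0.48 for Atp4b, 1.20 for Cdkn2a, 1.79 for Cyp2c29, 0.35 for Hecw2, 0.063 for Kcnj16 and 0.69 for Lct. Atp4b and Kcnj16 are themselves in the parietal list that picked those cells. Within cluster 5 it was 0.32 for Akr1b8, 0.67 for Atp4b, 1.19 for Cdkn2a, 1.19 for Cyp2c29, 0.87 for Hecw2, 0.41 for Kcnj16 and 0.67 for Lct. Within cluster 12 it was -0.60 for Chia1, 0.50 for Cldn4, -0.74 for Hba-a1, -0.47 for Hbb-bs, -1.26 for Krt14, 0.32 for Nrarp, 1.32 for Prap1 and -0.41 for Spink1. The stage ratio of Ghrl was 0.23 without the top cells and 0.27 without the rich cells, where Cox7a1 was at -0.30 and Kcnj16 at -0.57, and Dcn was at 0.28 without cells with markers of other classes. Within cluster 12, of 40 and 15 cells, it was -2.21 for Duox2 and Krt14, -0.18 for Gkn1, -0.39 for Gkn2, -0.30 for Gkn3, -0.55 for Hba-a1, -0.54 for Hbb-bs, -0.51 for Hbb-bt, 0.10 for Hmgb2, -1.21 for Hpx, 2.43 for Ihh, -0.066 for Il18, -0.19 for Klf2, -0.62 for Ly6m and Reg3g, 0.11 for Nrarp, -0.51 for Pdgfd and -1.62 for Spink1.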
